A study of Mus musculus with 12 samples.

Results

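The GIMAP genes (GTPases of immunity-associated proteins) form 1 cluster on mouse chromosome 6, and all 8 members named here, Gimap1, Gimap3, Gimap4, Gimap5, Gimap6, Gimap7, Gimap8 and Gimap9, were chosen by symbol out of the 55453 genes in the count table. They were followed in regulatory T (Treg) cells, a class of CD4 T cells, defined by Foxp3, that holds immune responses in check. RNA was sequenced from 12 libraries of cells sorted as CD4+Foxp3+ from C57BL/6 mice and lysed untreated. CNS4 is a distal enhancer of the X-linked Foxp3 gene, and the series asks what its loss changes in Treg cells, with animals matched for age and sex.

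The 4 groups held 3 libraries each. They were females labelled CNS4 knockout heterozygotes, females labelled CNS4 floxed heterozygotes, CNS4 knockout males, and CNS4 floxed males, whose label equates the floxed allele with wild type. The second allele of the heterozygotes, the animals' ages, the agent that deleted the enhancer and the organ were not spelled out, though each title holds the letters Thy. Whether each library came from its own animal was not given either, so p-values measure the spread between these libraries, which may be technical.

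GIMAP proteins are GTPases of lymphocytes, many of them on inner membranes, that bear on how long T and B cells live. In mice and rats, loss of Gimap5 causes a shortage of T cells, and in mice loss of Gimap1 depletes mature lymphocytes. In rodents several of the genes are switched on as thymocytes mature, so they are often read as genes of resting, mature T cells.

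In the edgeR fit of the 4 groups none of the 8 GIMAP genes passed the test between knockout and floxed Treg cells. Gimap4 was the most abundant of the plus-strand members. From the lowest of the 12 libraries to the highest, Gimap4, Gimap5, Gimap7, Gimap8 and Gimap9 ranged between 1.36-fold (Gimap9) and 1.78-fold (Gimap5). Gimap1, which lies between Gimap7 and Gimap5, ranged 16.2-fold. Gimap3 and Gimap6, both on the minus strand, were counted at a few CPM (counts scaled to a common library size, with TMM factors).

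Gene counts per library ran from 12423000 to 30245000. Genes on the plus strand held 95.8 to 97.2% of the counts of protein-coding genes, and a low count for a gene on the other strand is therefore no measure of its transcript level. Foxp3 averaged 1111 ± 621 CPM in knockout females and 2632 ± 43.8 CPM in floxed females, and 1792 ± 297 CPM in knockout males and 2496 ± 238 CPM in floxed males (SD, n = 3 each). Knockout females 1 to 3 had 685, 1824 and 825 CPM. The log2 fold change of Foxp3 over both sexes, knockout over floxed, was -0.86 (SE 0.22, edgeR adjusted p = 0.06). Foxp3 itself thus did not pass, nor did it in females (edgeR adjusted p = 0.103) or males (edgeR adjusted p = 0.835). The T cell gene Cd3d had 776 to 1218 CPM in all 12 libraries, while Cd4, on the minus strand, had 4.76 to 11.95 CPM. Summed, 18 markers of myeloid and dendritic cells ran from 886 to 1717 CPM in knockout females, 286 to 1175 CPM in floxed females, 245 to 1748 CPM in knockout males and 108 to 1605 CPM in floxed males. Of other lineages that use GIMAP genes, 8 B cell markers summed to 17.1 to 67.1 CPM, while 6 endothelial markers summed to 7.36 to 13.3 CPM in knockout females and 10.1 to 13.0 CPM in floxed females, and to 6.35 to 6.86 CPM in knockout males and 9.95 to 10.6 CPM in floxed males. The sum of 7 NK cell markers, 1 of them at 0 in all libraries, was higher in each knockout library than in each floxed library of its sex, at 198 to 287 CPM in knockout females and 160 to 180 CPM in floxed females, and 197 to 217 CPM in knockout males and 164 to 195 CPM in floxed males. Of the NK markers, 3 had enough counts to be tested in edgeR, and 0 passed an adjusted p of 0.05. Their log2 fold changes over both sexes, knockout over floxed, were 0.39 for Nkg7, -0.01 for Prf1 and -1.14 for Eomes. Of the endothelial markers, 1 was at 0 in all libraries and only Pecam1 was tested, at -0.34. Among single genes tested, 25.0% did not overlap between genotypes in females and 14.3% in males. The part of these other cell types in the GIMAP levels was not tested. In sorted bulk RNA, fewer cells of a type and less RNA per cell cannot be told apart.

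Upstream sequence is shown for 4 members to set Gimap1, the variable one, beside Gimap7, its neighbour, Gimap4, the most counted, and Gimap9, the steadiest. Each line holds the 250 bases before the RefSeq gene start on build GRCm38.p6, read on the plus strand, with the RUNX core TGTGGT and the ETS core AGGAAG, each on either strand, in capitals.
Gimap1, chr6:48738797-48739046: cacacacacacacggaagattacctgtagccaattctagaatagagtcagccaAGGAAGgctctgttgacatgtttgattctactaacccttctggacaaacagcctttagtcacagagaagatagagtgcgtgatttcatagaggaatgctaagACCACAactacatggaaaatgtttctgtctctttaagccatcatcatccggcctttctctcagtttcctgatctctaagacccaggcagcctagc
Gimap7, chr6:48718371-48718620: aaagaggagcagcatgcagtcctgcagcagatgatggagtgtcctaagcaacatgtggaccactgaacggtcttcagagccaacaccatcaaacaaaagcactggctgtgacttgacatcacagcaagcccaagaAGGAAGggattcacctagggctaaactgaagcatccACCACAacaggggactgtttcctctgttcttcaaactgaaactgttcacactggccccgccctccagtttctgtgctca
Gimap4, chr6:48684328-48684577: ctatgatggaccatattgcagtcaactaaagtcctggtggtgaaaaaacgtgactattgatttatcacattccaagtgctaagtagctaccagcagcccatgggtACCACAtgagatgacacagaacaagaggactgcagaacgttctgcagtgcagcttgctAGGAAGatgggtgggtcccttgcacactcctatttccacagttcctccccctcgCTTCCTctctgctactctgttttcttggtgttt
Gimap9, chr6:48675885-48676134: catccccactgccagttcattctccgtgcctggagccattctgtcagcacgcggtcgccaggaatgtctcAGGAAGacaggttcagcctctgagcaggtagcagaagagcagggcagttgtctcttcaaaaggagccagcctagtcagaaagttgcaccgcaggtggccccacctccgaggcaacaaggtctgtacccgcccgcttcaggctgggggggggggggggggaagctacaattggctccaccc

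The ETS core, bound by a family of factors active in lymphocytes, was searched in the form AGGAAG only. That form stood in the window of 7 of the 8 members (in 1 of the 2 windows of Gimap8) and was missing from that of Gimap6. Of all 32851 RefSeq promoter windows of this length, 29.5% held it. Gimap4 had it at 2 places. Other forms of the core, such as CGGAAG in the windows of Gimap6 and Gimap1, were not counted or put in capitals. The RUNX core stood upstream of Gimap1, Gimap4 and Gimap7, against 14% of all windows. Of motifs searched in the same way on both strands, the forkhead core TGTTTA was found upstream of Gimap3 only, against 12%, the STAT5 motif TTCNNNGAA upstream of Gimap6 and in the second Gimap8 window, where it overlaps the ETS core, against 7.02%, the GC box GGGCGG upstream of Gimap7 and Gimap9, against 32.7%, and the TATA box TATAAA upstream of Gimap6 only, against 12.4%. Matches of letters do not show binding. GC content of the windows was 44.4% for Gimap1, 50.8% for Gimap7, 47.6% for Gimap4 and 61.2% for Gimap9, with a median of 52.4% over all windows.

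**Figure D1:**
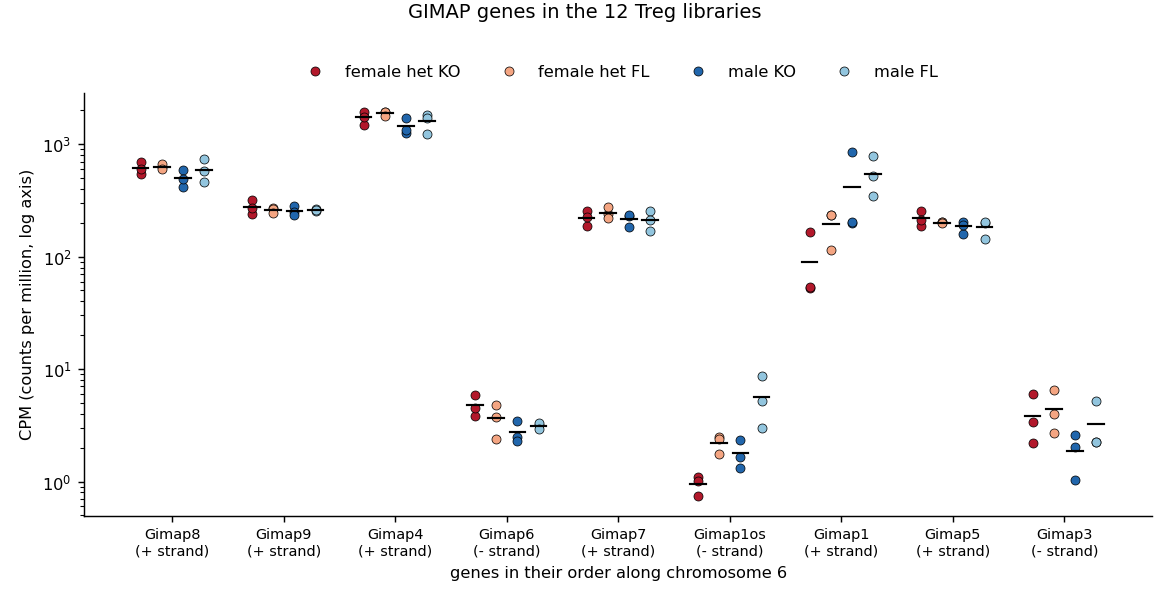
CPM of the 8 GIMAP genes and of Gimap1os, in their order along chromosome 6, on a log axis. Each point is 1 library and each bar the mean of 3; Gimap4, Gimap5, Gimap7, Gimap8 and Gimap9 sit in narrow bands, while Gimap1 spans 52.2 to 846 CPM.

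Levels were compared between genes per kilobase of annotated exon. Gimap4 led with 905 ± 142 CPM per kilobase (SD over 12 libraries). Gimap9 with 160 ± 13.9 and Gimap8 with 158 ± 25.2 CPM per kilobase came next and lay within each other's spread. Gimap7 had 96.2 ± 13.7 CPM per kilobase. Gimap1, at 102 ± 86.6 CPM per kilobase, had no fixed place beside it. Its group means were 29.4 CPM per kilobase in knockout females, 63.4 in floxed females, 135 in knockout males and 178 in floxed males. It lay below Gimap7 in all 6 female libraries and in male knockout libraries 1 and 2, and above it in male knockout library 3 and all 3 floxed males. Gimap5 followed at 47.4 ± 6.61 CPM per kilobase, below Gimap7, and above Gimap1 in female knockout libraries 1 and 3 and female floxed library 1. Gimap3 with 1.30 ± 0.669 and Gimap6 with 1.02 ± 0.308 CPM per kilobase had the lowest values and overlapped. Both lie on the minus strand, so these values do not rank their transcript levels against the other members. Exon lengths joined all annotated exons of a gene and came from a later annotation than the one behind the counts. The longest transcript was much shorter for Gimap1 (1614 against 3073 bases), Gimap7 (1269 against 2325) and Gimap5 (2328 against 4149). It was closer for Gimap4 (1804 against 1837), Gimap8 (3160 against 3700) and Gimap9 (1384 against 1642). The order of Gimap1, Gimap7, Gimap8 and Gimap9 and the gaps between them thus depend on the length used.

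Gimap4, which in mouse T cells hastens death once apoptosis has begun, had 1943, 1490 and 1761 CPM in knockout females and 1918, 1935 and 1787 CPM in floxed females. It had 1715, 1255 and 1344 CPM in knockout males and 1828, 1721 and 1244 CPM in floxed males. Knockout and floxed values overlapped in both sexes. Its lowest 2 values were in male knockout library 2 and male floxed library 4. The log2 fold change over both sexes, knockout over floxed, was -0.14 (SE 0.12, 95% interval -0.40 to 0.12, edgeR adjusted p = 0.53).

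Gimap8, the longest protein of the family, built of repeated GTPase domains, had 694, 538 and 606 CPM in knockout females and 630, 661 and 602 CPM in floxed females. Its values were 588, 419 and 489 CPM in knockout males and 732, 575 and 462 CPM in floxed males. The groups overlapped, and again male knockout library 2 and male floxed library 4 were lowest. The change was -0.14 (SE 0.12, edgeR adjusted p = 0.532) over both sexes, -0.04 in females and -0.24 in males.

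Gimap9 had the smallest spread of the 8 genes. It had 321, 239 and 271 CPM in knockout females, against 271, 265 and 247 CPM in floxed females. Male knockout libraries had 281, 249 and 236 CPM, and male floxed libraries 257, 267 and 259 CPM. Only 1.47% of all genes tested varied less over the 12 libraries by the SD of log2 CPM, which was 0.12 for Gimap9. Of the 1000 genes nearest to it in mean level, 6.19% varied less. Over both sexes its change stood at 0.03 (SE 0.09, edgeR adjusted p = 0.871), and 0.09 in females and -0.03 in males.

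Gimap5, a lysosomal GTPase needed for T cell survival, had 256, 188 and 214 CPM in knockout females and 201, 201 and 198 CPM in floxed females. In male knockout libraries it had 205, 159 and 192 CPM, and in floxed males 197, 205 and 143 CPM. The female floxed libraries were the tightest group, and the female knockout values lay on both sides of them. Gimap5 changed by 0.08 (SE 0.12, edgeR adjusted p = 0.711) over both sexes, 0.13 in females and 0.03 in males.

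Gimap7, whose human protein speeds GTP hydrolysis by a relative, had 253, 188 and 224 CPM in knockout females and 240, 279 and 219 CPM in floxed females. Its values were 231, 184 and 234 CPM in knockout males and 253, 210 and 170 CPM in floxed males. Neither sex separated the genotypes. The change was -0.06 (SE 0.12, edgeR adjusted p = 0.811) over both sexes, -0.15 in females and 0.04 in males. For Gimap4, Gimap5, Gimap7, Gimap8 and Gimap9 together, the 95% intervals over both sexes reached no lower than 0.748-fold, for Gimap8, and no higher than 1.26-fold, for Gimap5.

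The summed level of these 5 genes ran from 2643 to 3466 CPM in knockout females and 3052 to 3342 CPM in floxed females, and from 2266 to 3021 CPM in knockout males and 2279 to 3266 CPM in floxed males. The lowest sums, 2266 CPM in male knockout library 2 and 2279 CPM in male floxed library 4, stood in the 2 male libraries with the most myeloid RNA, 1748 and 1605 CPM. Female knockout library 3, with 1717 CPM of myeloid markers, had a sum of 3075 CPM. The part of myeloid RNA in these levels was not tested.

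**Figure D2:**
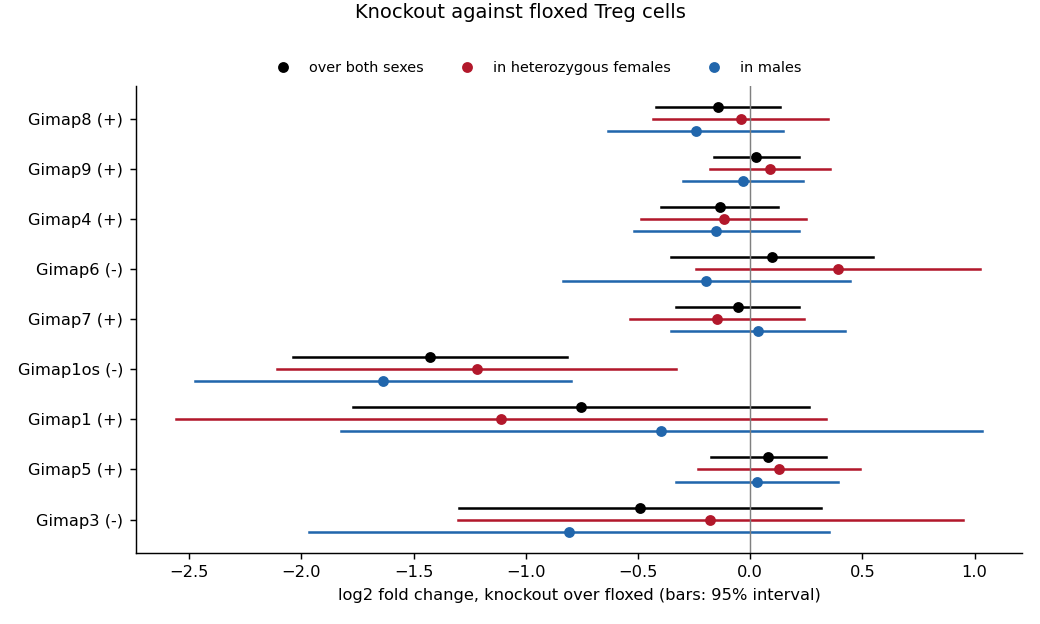
Log2 fold changes of knockout over floxed Treg cells for each gene, over both sexes, in heterozygous females and in males, with 95% intervals from edgeR. The intervals of all 8 GIMAP genes include 0, those of Gimap1 and Gimap3 are the widest among them, and those of Gimap1os lie below 0.

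Gimap1, a Golgi-resident member on which mature B and T cells depend in mice, had 52.2, 166 and 53.3 CPM in knockout females and 116, 236 and 234 CPM in floxed females. It had 200, 202 and 846 CPM in knockout males, against 519, 779 and 346 CPM in floxed males. Female knockout libraries 1 and 3 were the lowest of the 12 and male knockout library 3 the highest. The genotypes overlapped in both sexes. The log2 fold change was -0.75 (SE 0.46, 95% interval -1.77 to 0.26, edgeR adjusted p = 0.369) over both sexes, -1.11 (SE 0.65, edgeR adjusted p = 0.349) in females and -0.40 (SE 0.64, edgeR adjusted p = 0.999) in males. Over both sexes it was -1.26 (edgeR adjusted p = 0.0734) without male knockout library 3 and -0.32 (edgeR adjusted p = 0.911) without female knockout libraries 1 and 3. In females it was -1.87 (edgeR adjusted p = 0.0766) without knockout library 2 and -0.23 without knockout libraries 1 and 3. In males it was -1.43 (edgeR adjusted p = 0.305) without knockout library 3, -0.64 without floxed library 4, and -0.05 without knockout library 1, knockout library 2 or floxed library 2, each left out alone. In limma-voom with quality weights Gimap1 passed the threshold, at -1.52 (adjusted p = 0.00279) over both sexes and -1.88 (adjusted p = 0.00426) in females. Those limma-voom fits called many genes, 4630 over both sexes and 5437 in females.

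Among floxed libraries, Gimap1 was lower in each of the 3 females than in each of the 3 males. This comparison was added after the values were seen. The log2 difference, females over males, was -1.49 (SE 0.66, unadjusted p = 0.046, edgeR adjusted p = 0.665), so it did not pass over all genes, of which 0.0322% did. Values that did not overlap between floxed females and floxed males were common, at 25.0% of all genes tested, and 14.3% were lower in females as Gimap1 was. At an unadjusted p under 0.05 stood 6.14% of all genes, and of the 8 GIMAP genes Gimap1 alone. The other 7 GIMAP genes overlapped between the sexes.

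Gimap1 thus took a different share of the family in each library. It made up 1.48, 5.89 and 1.70% of the summed CPM of the 8 genes in knockout females and 3.42, 6.57 and 7.10% in floxed females. In males its share was 6.19, 8.17 and 25.3% in knockout and 13.7, 20.7 and 13.2% in floxed libraries. The spread of its log2 CPM over the 12 libraries was 1.30 (SD), against 0.12 to 0.24 for Gimap4, Gimap5, Gimap7, Gimap8 and Gimap9. Of the 1000 genes nearest to it in mean level, 98.3% varied less, and of all genes tested 94.0% did. Measured against the genes nearest to each in level, 51.1% varied less than Gimap4 and 50.7% less than Gimap8. The same share was 33.8% for Gimap5 and 36.6% for Gimap7.

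Traits of the libraries moved with Gimap1. Its longest transcript was the richest of the family in G and C, at 57.0%, against 41.3 to 51% in the other 7 members and a median of 48.7% over the tested genes. Each library's deviations from the gene means were compared with GC content by Spearman's rank correlation across genes, which are not independent replicates. The correlation was -0.35, -0.10 and -0.26 in female knockout libraries 1 to 3 and -0.09, 0.02 and 0.11 in floxed females 1 to 3. It was -0.08, 0.05 and 0.31 in male knockout libraries 1 to 3, and 0.13, 0.19 and 0.35 in floxed males 1, 2 and 4. The 4 libraries with the highest Gimap1 were thus the 4 with the highest correlation, and the 2 with the lowest Gimap1 had the lowest. The share of counts from mitochondrial genes, a sign of RNA quality, ran the other way. It was 4.04, 2.77 and 3.40% in knockout females 1 to 3 and 2.64, 2.37 and 2.27% in floxed females 1 to 3. In knockout males 1 to 3 it was 2.69, 2.59 and 1.17%, and in floxed males 1, 2 and 4 it was 2.05, 1.804 and 1.61%. It was highest in the 2 libraries with the lowest Gimap1 and lowest in the 4 with the highest Gimap1, and its part in the Gimap1 values was not tested. After each library was freed of its dependence on GC and transcript length, the SD of Gimap1 was 1.09 in place of 1.30, and its change over both sexes stood at -0.67 (edgeR adjusted p = 0.358).

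**Figure D3:**
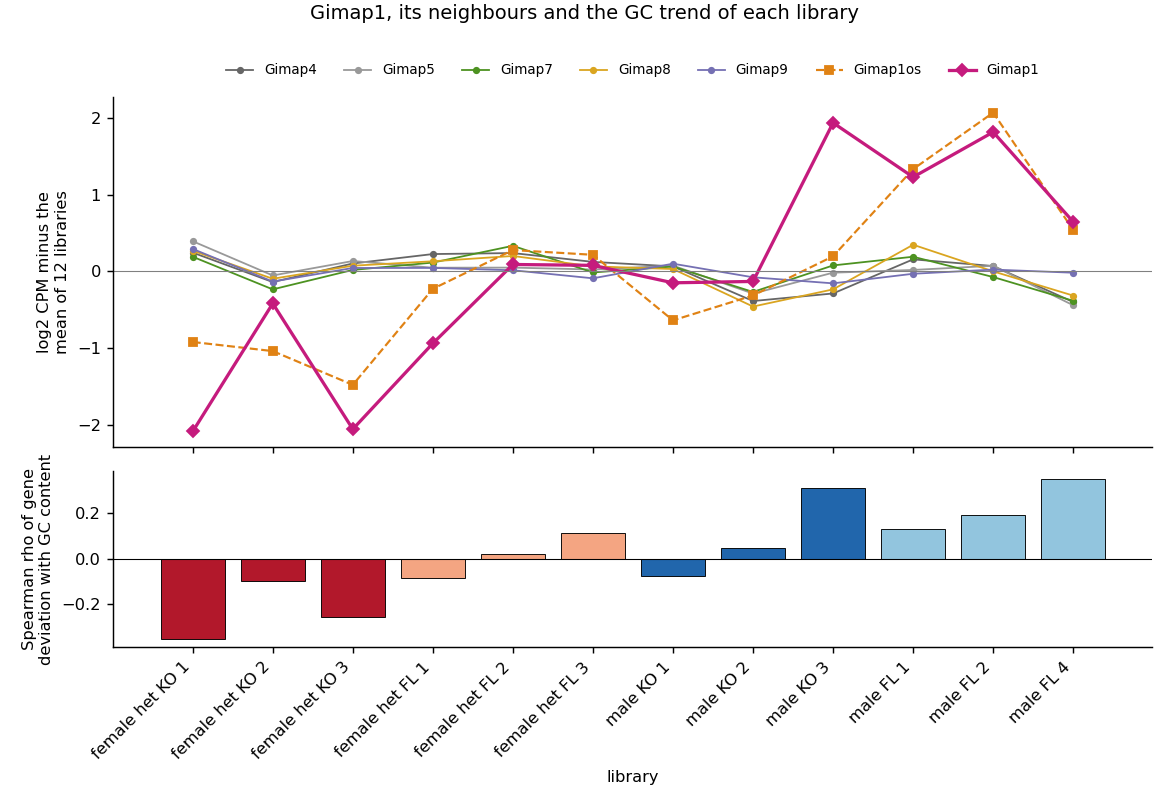
Top, log2 CPM of 6 plus-strand GIMAP genes and of Gimap1os minus their own mean over 12 libraries; bottom, Spearman's rank correlation between the gene deviations of each library and GC content. Gimap1 swings with the libraries, from its lowest points in female knockout libraries 1 and 3 to its highest in male knockout library 3, while the 5 other GIMAP genes shown stay near 0.

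Genes that followed Gimap1 most closely were sought after its values were seen, by the root mean square difference between log2 CPM centred on each gene's mean, over 12 libraries and 4700 candidate genes. Arhgap9 was nearest at 0.11, followed by Fbxo21 at 0.12 and Ddx51 at 0.13. Rnf215 at 0.14, Ppif at 0.15 and Mpnd at 0.15 completed the first 6. They lie on chromosomes 10, 5, 5, 11, 14 and 17, and their longest transcripts had 50.2 to 59.6% GC. All are on the plus strand, whose genes held 95.8 to 97.2% of protein-coding counts. Candidates needed a mean log2 CPM of at least 4, and their plus-strand share was not counted, so the shared strand is no finding. Near the cluster itself, Zfp775 and Repin1, a pair of plus-strand zinc-finger genes picked after their values were seen, also spread widely. Zfp775 (56.7% GC) ran from 0.664 to 5.22 CPM in knockout females and 3.51 to 9.44 CPM in floxed females, and from 6.16 to 30.7 CPM in knockout males and 13.0 to 30.2 CPM in floxed males. Repin1 (57.7% GC) spanned 1.33 to 19.9 CPM over the 12 libraries. Lrrc61, also nearby and with 54.5% GC, stayed between 88.2 and 168 CPM.

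For the mean profile of the 6 plus-strand members, the 6 most alike genes were Ccm2 (root mean square difference 0.10), Dlg1 (0.11), Cdk11b (0.11), Trim24 (0.11), Tubgcp4 (0.12) and Setd2 (0.12), over the same 12 libraries and 4700 candidates. Only Trim24 of these lies on chromosome 6. Without Gimap1 in the mean, which was tried after the values were seen, they were Fam193a, Pik3ca, Nbr1, Slamf1, Sytl2 and Ing1, at 0.07 to 0.09. The 2 sets share no gene, so the likeness of the family's mean rests on whether Gimap1 is in it.

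Gimap6, an autophagy-linked member that binds GABARAPL2, was counted 38 to 98 times per library. It had 5.92, 3.86 and 4.50 CPM in knockout females and 3.78, 4.76 and 2.39 CPM in floxed females. Male knockout libraries had 3.46, 2.51 and 2.28 CPM, and male floxed libraries 3.17, 3.34 and 2.92 CPM. The genotypes overlapped in both sexes. The change was 0.10 (SE 0.20, edgeR adjusted p = 0.803) over both sexes, 0.39 in females and -0.20 in males.

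Gimap3, the closest relative of Gimap5, was counted 27 to 99 times per library. It had 5.98, 2.22 and 3.39 CPM in knockout females and 2.70, 6.49 and 3.98 CPM in floxed females. Male knockout libraries had 2.01, 2.58 and 1.03 CPM, and male floxed libraries 5.24, 2.25 and 2.23 CPM. Within either sex the genotypes overlapped, and over both sexes it changed by -0.49 (SE 0.36, edgeR adjusted p = 0.456). At these counts the interval over both sexes ran from 0.406-fold to 1.24-fold. Of its annotated windows of 50 bases, 7.52% occur in Gimap5 as well, and 4.53% of those of Gimap5 occur in Gimap3. No other pair of the 8 genes shared a window of this length. Reads in those stretches cannot be placed with certainty.

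Over the family, 0 of 8 members passed an adjusted p of 0.05 over both sexes (edgeR, Benjamini-Hochberg over 12411 genes), where 3.31% of all genes tested did, and 0 of 8 had an unadjusted p under 0.05, where 20.2% of all genes did. The count was likewise 0 in males, where 0.0242% of all genes passed, and in heterozygous females, where 0.201% did. Unadjusted, it was 0 of 8 in each sex, where 8.12% of all genes in males and 19.2% in females had a p under 0.05. DESeq2, whose totals over all genes are given in the closing section, also called 0 members in each of these comparisons. In limma-voom 1 member was called, Gimap1, over both sexes, where 4630 genes were called, and in females, where 5437 were. The median log2 fold change of the 8 genes was -0.10 over both sexes, with 3 above 0 and 5 below, and -0.02 over all genes tested. It was -0.17 in males, where the median of all genes was 0.01, and -0.08 in females, where that was -0.02. In neither sex did a member separate the 3 knockout from the 3 floxed libraries, while 14.3% of all genes did in males and 25.0% in females.

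Whether the change in females differed from that in males was tested as well. No GIMAP gene passed, and none of the 12411 genes did in edgeR, with 2.73% of genes at an unadjusted p under 0.05, or in DESeq2, while limma-voom called 1040 genes. For Gimap1 the difference, female minus male, was -0.71 (SE 0.91, edgeR adjusted p = 0.894), and it ranged from -1.49 to 0.40 over 22 alternatives.

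Gimap1os, a noncoding gene on the minus strand, lies opposite Gimap1 and shares 1107 exonic bases with it, 36.0% of the annotated exons of Gimap1. It had 1.087, 1.001 and 0.738 CPM in knockout females, against 1.76, 2.49 and 2.39 CPM in floxed females. In male knockout libraries it had 1.32, 1.65 and 2.36 CPM, and in floxed males 5.17, 8.61 and 2.99 CPM. Each knockout library was thus lower than each floxed library of its sex, as were 9.70% of all genes in females and 6.13% in males. Gimap1os fell by 1.43 on the log2 scale over both sexes (SE 0.28, edgeR adjusted p = 0.0218). It rests on 10 to 111 counts per library, and the call was lost, at adjusted p of up to 0.0722, without female floxed library 2 or 3, female knockout library 1 or 3, male knockout library 1 or 2, or floxed library 1 of the males. Without female knockout libraries 1 and 3 together the adjusted p was 0.19.

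Per 100 counts of Gimap1 there were 2.08, 0.604 and 1.39 counts of Gimap1os in knockout females and 1.52, 1.06 and 1.02 in floxed females. In males there were 0.662, 0.818 and 0.278 in knockout and 0.998, 1.11 and 0.864 in floxed libraries. In males, then, the ratio was lower in each knockout library than in each floxed one, and in females it was not. The ratio was chosen after the values were seen and was not tested. The strand setting of the counting was not given in the sources used here. Plus-strand genes held 95.8 to 97.2% of protein-coding counts, so the counts depended on strand. How reads were assigned where the 2 genes overlap was not tested. Gm28053, a plus-strand model that overlaps Gimap7, Gimap1 and Gimap5, shares 81, 198 and 153 exonic bases with them and had 89 to 190 counts per library.

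Genes tied to GIMAP function were given as 5 lists. The partners of GIMAP proteins comprised BCL2 family members, Gsk3b, the GABARAP and LC3 genes of autophagy and the HSP90 genes. Of 15, 12 were tested, 2 rose and 0 fell over both sexes, with a median log2 fold change of -0.03, where 2.68% of all genes tested rose and 0.637% fell. The cytosolic chaperone gene Hsp90aa1, on the minus strand, averaged 267 ± 32.0 CPM in knockout females and 195 ± 12.9 CPM in floxed females, and 277 ± 43.1 CPM in knockout males and 192 ± 15.3 CPM in floxed males (SD, n = 3 each). It rose by 0.49 (SE 0.10, edgeR adjusted p = 0.0238), and Hsp90ab1, a second such gene with the same orientation, by 0.42 (SE 0.10, edgeR adjusted p = 0.0428). Both calls were lost, at adjusted p of up to 0.0833 for Hsp90aa1 and 0.156 for Hsp90ab1, without any single female floxed library, female knockout library 1 or 3, male knockout library 1 or 2, or floxed library 1 or 2 of the males. That of Hsp90ab1 was also lost without male floxed library 4 and with no filter on low counts (edgeR adjusted p = 0.104).

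Resting and mature T cell genes, the class in which GIMAP genes are usually placed, had 20 members. Of the 19 tested, 0 rose and 1 fell (2.68% and 0.637% of all genes), with a median of -0.18 and 15 of 19 below 0, where 52.3% of all genes were below 0. The one that fell was Lef1, a transcription factor of naive T cells. It averaged 792 ± 24.8 CPM in knockout females and 978 ± 35.5 CPM in floxed females, and 812 ± 136 CPM in knockout males and 1202 ± 212 CPM in floxed males (SD, n = 3 each). Its change was -0.43 (SE 0.10, edgeR adjusted p = 0.0463). The edgeR call was lost, at adjusted p of up to 0.147, without any single female floxed library, female knockout library 1 or 3, male knockout library 1 or 2, or floxed library 1 or 2 of the males, and with RLE normalization (adjusted p = 0.0542).

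None of the 8 tested genes of immature double-positive thymocytes, out of 12, passed over both sexes. Their median was 0.28, with 7 above 0 and 1 below, where 52.3% of all genes were below 0. The list's median was 0.56 in females and -0.07 in males. The 1 below was Tcf12, on the minus strand, at -0.68 (SE 0.42, edgeR adjusted p = 0.367). Tcf12 was counted near the floor, with group means of 0.824 to 2.88 CPM. Without male knockout library 3 it was called, at -1.22 (edgeR adjusted p = 0.0401), as it was in limma-voom, at -0.95 (adjusted p = 0.0294).

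Over both sexes, among other GTPases of immunity, the guanylate-binding and immunity-related GTPases induced by interferon, 12 of 17 genes were tested, 1 rose and 0 fell (2.68% and 0.637% of all genes), with a median of 0.07. The one that rose was Gbp3, at 346 ± 92.8 CPM in knockout females and 235 ± 19.7 CPM in floxed females, and 298 ± 25.5 CPM in knockout males and 193 ± 16.1 CPM in floxed males (SD, n = 3 each). Its change was 0.59 (SE 0.12, edgeR adjusted p = 0.0274). The edgeR call was lost, at adjusted p of up to 0.106, without any single female floxed library, female knockout library 3, male knockout library 1, or floxed library 1 or 2 of the males. Without female knockout libraries 1 and 3 together, the edgeR adjusted p was 0.214 for Hsp90aa1, 0.236 for Hsp90ab1, 0.169 for Lef1 and 0.122 for Gbp3. Without male knockout library 2 and male floxed library 4 together, it was 0.0944 for Hsp90aa1, 0.0853 for Hsp90ab1 and 0.0582 for Gbp3. A list of 18 symbols meant to lie near the cluster held 14 on chromosome 6 and 3 on other chromosomes. Of the 10 on chromosome 6 that were tested, 1 passed, Gimap1os, against 3.31% of all genes.

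**Figure D4:**
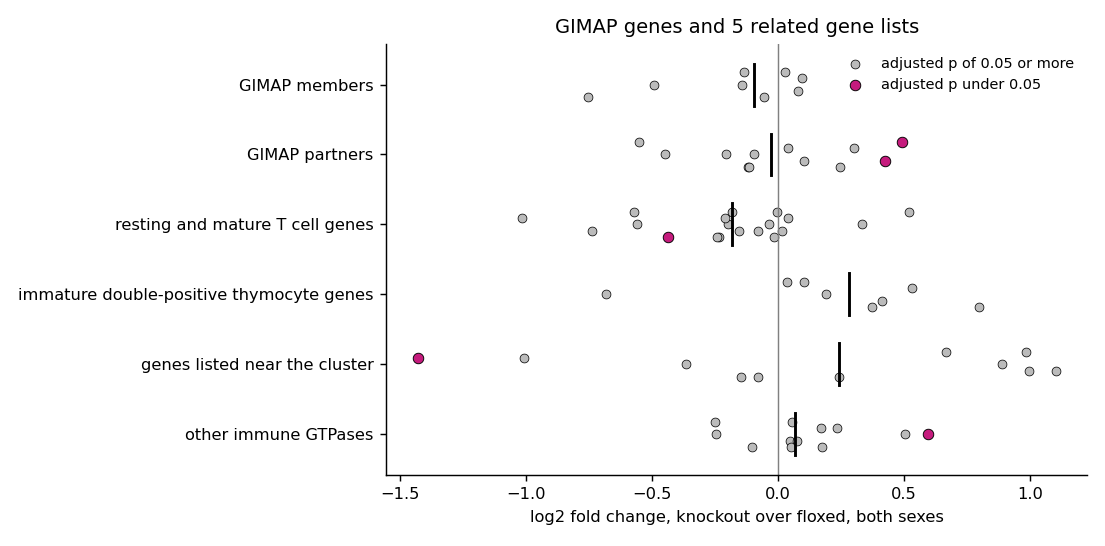
Log2 fold change over both sexes for each tested gene of the GIMAP family and of 5 related lists; vertical bars are medians and coloured points passed an adjusted p of 0.05. No GIMAP gene is coloured, and the coloured points are Hsp90aa1, Hsp90ab1, Lef1, Gimap1os and Gbp3.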

How the data were processed

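RNA was taken up in TRIzol after sorting and made into libraries with a SMARTer Stranded kit, per the labels' protocols. The authors deposited raw read counts per gene. The submitters' processing notes name CASAVA, STAR 2.3.0e and 2.5.2b, HTSeq 0.6.1p1 and build mm9; which STAR version was used where, the annotation and the strand setting were not given in the sources used here. The HTSeq summary lines stayed out of library sizes (their largest, no-feature reads, held 44.3 to 46.9% of each column).

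Genes were kept by filterByExpr (12411 of 29806 with a read), scaled by TMM and tested with edgeR 4.0.16 (quasi-likelihood, all 12 libraries, 4 groups, Benjamini-Hochberg, threshold 0.05) in R 4.3.3. limma 3.58.1 (voom) and DESeq2 1.42.0 served as alternatives, as did other filters and normalization, left-out libraries, a replicate block, plus-strand genes alone and a correction for GC and length. The steps were tested on simulated data. The comparison of floxed females with floxed males was added after the data were seen.

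Strand, length and GC came from GENCODE M21, a GRCm38 annotation, by symbol (54510 matched), so no gene coordinates are given on mm9. Upstream windows came from RefSeq on GRCm38.p6 (8 of 8 members matched). The members and lists were chosen with earlier results of these data known. From each list, up to 5 genes with the smallest p among those past the threshold are named, otherwise the 2 with the smallest p. A gene that this rule names is not reported here.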

Additional observations from a re-analysis of the deposited data

How the results depend on the processing

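Over both sexes 411 genes were called, against 1129 with DESeq2, 4630 with limma-voom (1834 higher, 2796 lower), 44 without female knockout libraries 1 and 3, and 98 to 2940 with 1 library left out. In males the 3 calls became 237 with DESeq2, 177 with limma-voom, 26 with no low-count filter, 17 after the GC and length correction, 0 with plus-strand genes alone, 0 with male libraries alone, 0 without male knockout library 2 and male floxed library 4, and 0 to 35 with 1 library left out. In females the 25 calls became 703 with DESeq2, 5437 with limma-voom, 94 with no low-count filter, 50 with a 5 CPM filter, 41 after the GC and length correction, 0 with female libraries alone, 0 without female knockout libraries 1 and 3, 63 without male knockout library 2 and male floxed library 4, and 0 to 3089 with 1 library left out. For the difference between the sexes' changes there were 0 calls, 1040 with limma-voom and 0 to 1108 with 1 library left out. Between floxed females and floxed males the 4 calls became 59 with DESeq2, 9 with limma-voom, 12 with no filter and 3 to 20 with 1 library left out. The causes were not tested.

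GIMAP calls stayed at 0 with any 1 library left out, and limma-voom called 1 over both sexes and 1 in females, Gimap1. Directions turned for small changes. In males limma-voom gave -0.022 for Gimap5, -0.064 for Gimap7 and 0.011 for Gimap9. The GC and length correction gave Gimap9 -0.16 over both sexes and -0.20 in females. Without female knockout libraries 1 and 3, Gimap5, Gimap6 and Gimap9 were at -0.030, -0.053 and -0.077 over both sexes, Gimap5 and Gimap9 at -0.090 and -0.12 in females, and the Gimap1 difference between the sexes at 0.17. Without male knockout library 2 and male floxed library 4, Gimap5 in males was at -0.0064. With 1 library left out, Gimap6 ran from -0.029 to 0.20, Gimap7 from -0.12 to 0.017 and Gimap9 from -0.046 to 0.081 over both sexes. In females Gimap3 ran from -0.65 to 0.20, Gimap5 from -0.011 to 0.23, Gimap8 from -0.16 to 0.046 and Gimap9 from -0.047 to 0.19. In males Gimap5 ran from -0.11 to 0.14, Gimap7 from -0.096 to 0.19 and Gimap9 from -0.11 to 0.037. The difference between the sexes ran from -1.49 to 0.34 for Gimap1 and from -0.039 to 0.71 for Gimap1os.

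Replicate numbers were not taken as pairs in the main fit. Same-numbered libraries correlated at 0.44 and -0.61 in males and at 0.19, 0.28 and -0.22 in females. Of the female knockout libraries, 1 of 3 matched its own number best. So few values cannot settle whether libraries of the same number were paired. With the replicate block there were 1218 calls over both sexes, 0 in males and 0 in females, and 1 GIMAP call, Gimap1 at -1.46 (edgeR adjusted p = 0.0348). In that fit male knockout library 3, the highest in Gimap1, and male floxed library 4 had no partner of the same number. They therefore added nothing to the knockout change. Of the other genes named over both sexes, Hsp90ab1 was no longer called, at 0.38 (edgeR adjusted p = 0.109), and Tcf12 was, at -1.34 (edgeR adjusted p = 0.0477). Under the block Gimap5 was at -0.017 over both sexes, Gimap5, Gimap7 and Gimap9 at -0.15, -0.16 and 0.015 in males, and the Gimap1 difference at 0.40.

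Gimap3 and Gimap6 rest on 27 to 99 and 38 to 98 counts per library, which limits their precision. Both lie on the minus strand, where a low count is no measure of transcript level. Gimap1os could not be tested with the 5 CPM filter or with plus-strand genes alone.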
